A study of Homo sapiens with 6 samples.

Results

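A set of 10 genes of fibroblast growth factor (FGF) signalling was followed in KGN cells depleted of the forkhead transcription factor FOXL2. They were chosen by symbol among the 60671 genes of the tables. They are the ligands FGF2, FGF1 and FGF5, the receptors FGFR1, FGFR2, FGFR3 and FGFR4, the docking protein FRS2 and the Sprouty inhibitors SPRY2 and SPRY4. The choice was made with results of this same comparison known, so the values of the 10 genes are given as a description and without a test. KGN is a human granulosa tumour cell line, and the cells used here had been genome-edited so that both FOXL2 alleles were wild type. All cells were transfected with 30 pmol of siRNA and RNA was collected after 30 h, from 3 samples with a control siRNA and 3 with FOXL2 siRNAs. Each FOXL2 siRNA sample received a different pool of 3 siRNAs drawn from 4, with 1 siRNA common to the pools, so these samples repeat the depletion but not the siRNA mixture. The replicate number of a FOXL2 siRNA library is the number of its pool in the labels, and the control labels carry the same pool numbers. No source states that the samples of a group came from separate cultures, and the p-values below measure only the spread between these samples.

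FGFs are secreted proteins that bind, together with heparan sulfate, to tyrosine kinase receptors at the cell surface. The activated receptor phosphorylates FRS2, which recruits GRB2 and SOS and passes the signal through RAS and RAF to the kinases MEK and ERK. ERK activity in turn raises transcripts of inhibitors of the same cascade, among them the Sprouty genes, the SPRED genes and the dual-specificity phosphatases. In the ovary FGF2 is known as a mitogen and survival factor for granulosa cells, while SPRY2 and SPRY4 are common readouts of receptor tyrosine kinase activity. FGF2 has no classical signal peptide and leaves the cell by a route of its own.

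The libraries held between 23843192 and 28791954 expected counts each, and the groups were compared with edgeR over the 15663 genes with enough counts; a gene is said to be called when its Benjamini-Hochberg adjusted p was below 0.05. FOXL2 itself had rounded counts of 248, 238 and 290 with the control siRNA and 72, 80 and 68 after depletion, a log2 fold change of -1.88 (SE 0.142; edgeR adjusted p = 0.00267). FOXL2 siRNA replicate 2 stood apart from the other libraries on the first principal component, with a score of 40.9 where the others lay between -17.2 and -0.0247. Among 9 granulosa markers, NR5A1 (34.6 to 39.2 TPM, a level scaled to transcript length and library size) and INHBA (23.6 to 37.9 TPM) were present besides FOXL2. FSHR and WT1 were at 0 in every library, and AMHR2, INHA, CYP19A1 and GATA4 did not exceed 0.68 TPM. Of 7 markers of other cell types SOX9, a Sertoli cell factor, lay between 5.09 and 9.55 TPM and PTPRC between 0.40 and 1.01 TPM, and the other 5 did not exceed 0.50 TPM. Of the 3 that could be tested edgeR called 0 (0 at an unadjusted p below 0.05, 0 by DESeq2). In bulk RNA, fewer expressing cells and less RNA per cell cannot be told apart.

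Per unit of transcript length, FGFR1 was by far the most abundant of the 10 transcripts, and transcripts of FGF1, FGF5 and FGF2 were all detected well above the low-count filter. In the control libraries FGFR1 stood at 105, 101 and 129 TPM (112 ± 14.7, SD, n = 3). FGF1 (34.9 ± 5.20 TPM, SD, n = 3) and FGF5 (34.6 ± 1.43 TPM, SD, n = 3) overlapped and could not be ordered. FGF2 followed with 16.4 ± 0.273 TPM (SD, n = 3), and its 3 values lay above those of FRS2 (14.6 ± 0.359 TPM) and of SPRY4 (10.3 ± 0.870 TPM). FGFR3 (2.51 ± 0.730 TPM) and SPRY2 (2.41 ± 0.246 TPM) overlapped with each other. FGFR4 and FGFR2 were at the edge of detection: FGFR4 had 2, 3 and 1 counts in the control libraries and 3, 0 and 3 with the FOXL2 siRNAs, and FGFR2 had a count in 1 library only, 2 counts in FOXL2 siRNA replicate 3. A count of 0 allows up to 3 counts, here 0.104 to 0.126 CPM, the count scaled to library size, depending on the library. This limit covers counting error only, and it was scaled to the raw library totals, without the TMM normalization of the other CPM values. No fold change is given for FGFR2 and FGFR4. The control mean of FGFR1 exceeded the levels of 91.1% of the genes tested, that of FGF2 55.6% and that of SPRY2 23.3%.

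**Figure D1:**
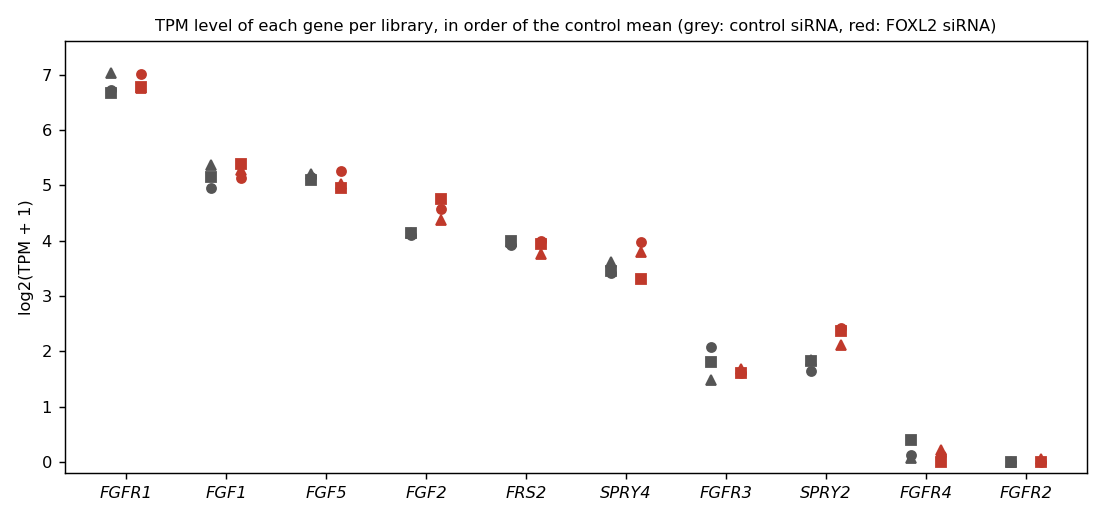
Level of the 10 genes in each library as log2(TPM + 1), in order of the control mean, with control libraries in grey and FOXL2 siRNA libraries in red (circle, square and triangle are replicates 1, 2 and 3). FGFR1 is highest in every library, FGF1 and FGF5 lie together, and FGFR4 and FGFR2 lie at or near 0.

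The receptor family was represented almost wholly by FGFR1 in both groups. FGFR1 made up 96.9%, 97.3% and 98.6% of the summed TPM of FGFR1 to FGFR4 in the control libraries and 98.4%, 98.2% and 97.8% of it with the FOXL2 siRNAs. The shares overlapped between the groups (97.6% ± 0.876 against 98.1% ± 0.284, SD, n = 3). FGFR3 supplied nearly all of the remainder, 2.25% ± 0.819 of the sum in the control libraries and 1.79% ± 0.225 with the FOXL2 siRNAs (SD, n = 3).

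FGF2 (ENSG00000138685) encodes basic FGF and lies on the plus strand of chromosome 4, from 122826708 to 122898236 in GRCh38. Its TMM-normalized counts were 51.5, 51.7 and 52.3 CPM in the control libraries and 78.0, 94.5 and 63.8 CPM in the FOXL2 siRNA libraries. All FOXL2 siRNA libraries lay above all control libraries, and they were also further apart from each other (51.9 ± 0.423 against 78.8 ± 15.4 CPM, SD, n = 3). The ratio of the means was 1.52 and the log2 fold change was 0.60 (SE 0.124). On the TPM scale FGF2 was at 16.1, 16.5 and 16.6 in the control libraries and at 22.9, 25.8 and 19.6 in the FOXL2 siRNA libraries, a ratio of 1.39. The groups did not overlap on this scale either, but the difference was smaller.

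The 2 scales differ in how the libraries are normalized and by the effective length of the gene. RSEM estimates this length in each library as the average over the gene's transcripts weighted by their abundance. For FGF2 this was 4759, 4671 and 4582 nucleotides in the control libraries and 4979, 5781 and 4833 nucleotides in the FOXL2 siRNA libraries. The longest estimate was that of FOXL2 siRNA replicate 2, the library that also held the most FGF2. In 7.54% of the genes tested the effective length was higher in each FOXL2 siRNA library than in each control library. The log2 ratio of the mean lengths was 0.15 for FGF2, against a median of 0.009 over all genes tested, and 10.9% of genes had a higher one. Once edgeR took the effective lengths as offsets, FGF2 had a log2 fold change of 0.47 (SE 0.0945). Leaving out FOXL2 siRNA replicate 2 gave 0.45 (SE 0.0844). Whether the transcripts of FGF2 changed in proportion was not tested, since the tables hold genes and not transcripts.

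**Figure D2:**
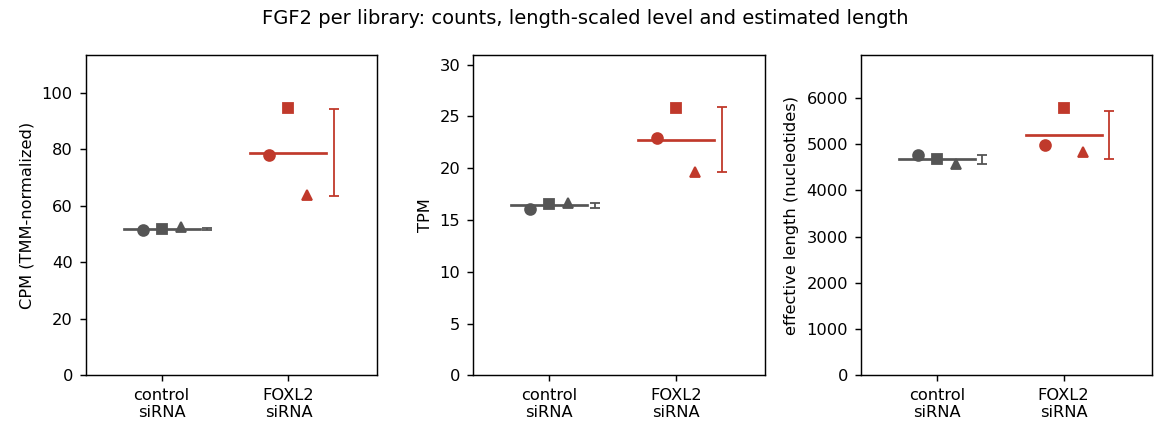
FGF2 in each library as TMM-normalized CPM (left), TPM (middle) and effective length in nucleotides (right); horizontal lines are means and bars to their right are the SD of 3 libraries. The FOXL2 siRNA libraries lie above the control libraries in the 3 panels, and replicate 2 (square) is highest in each.

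Of the ligand transcripts FGF2 made up a larger share in every FOXL2 siRNA library than in any control library. It accounted for 19.9%, 19.7% and 17.8% of the summed TPM of FGF1, FGF2 and FGF5 in the control libraries and 24.4%, 26.6% and 22.0% with the FOXL2 siRNAs. The sum itself was 85.9 ± 6.34 TPM in the control libraries and 93.3 ± 3.86 TPM in the FOXL2 siRNA libraries (SD, n = 3), and the ranges of the sum overlapped. FGF1 (ENSG00000113578, chromosome 5), which like FGF2 lacks a signal peptide, was at 39.0, 39.1 and 45.3 CPM in the control libraries and at 39.3, 49.7 and 43.5 CPM with the FOXL2 siRNAs. Its log2 fold change was 0.10 (SE 0.101), and 0.00 without FOXL2 siRNA replicate 2. FGF5 (ENSG00000138675, chromosome 4), a secreted ligand known as a regulator of hair growth, was at 56.6, 56.8 and 59.6 CPM in the control libraries and at 75.8, 58.8 and 52.5 CPM with the FOXL2 siRNAs. Only FOXL2 siRNA replicate 1 was above the controls by more than their spread. The log2 fold change of FGF5 was 0.11 (SE 0.122) and turned to -0.07 with effective lengths as offsets and to -0.05 without FOXL2 siRNA replicate 1, so no direction can be given for it.

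SPRY2 (ENSG00000136158, chromosome 13), which encodes a Sprouty protein that restrains signalling from receptor tyrosine kinases to RAS, was the other gene whose groups did not overlap. It was at 3.07, 3.67 and 3.84 CPM in the control libraries and at 6.33, 5.58 and 4.82 CPM in the FOXL2 siRNA libraries, resting on 77 to 103 and on 135 to 173 counts. The ratio of the means was 1.58 and the log2 fold change 0.66 (SE 0.156). Its effective length differed little (2156 ± 12.8 against 2137 ± 3.32 nucleotides, SD, n = 3), and it had a log2 fold change of 0.70 (SE 0.176) when those lengths were offsets. It was 0.65 (SE 0.173) without FOXL2 siRNA replicate 2. In the leave-one-out fits the log2 fold change of SPRY2 stayed between 0.55 and 0.75.

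SPRY4 (ENSG00000187678, chromosome 5), a second Sprouty inhibitor, did not behave alike in the 3 pools. It was at 29.3, 30.0 and 33.6 CPM in the control libraries and at 46.5, 24.2 and 38.1 CPM in the FOXL2 siRNA libraries. Replicates 1 and 3 lay above the controls and replicate 2 below them, and the log2 fold change was 0.23 (SE 0.196). It was 0.45 (SE 0.0986) without FOXL2 siRNA replicate 2 and 0.02 (SE 0.171) without FOXL2 siRNA replicate 1. In replicate 2, then, FGF2 was at its highest and SPRY4 at its lowest.

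FGFR1 (ENSG00000077782, chromosome 8) was at 207, 211 and 260 CPM in the control libraries and at 270, 236 and 245 CPM with the FOXL2 siRNAs. The groups overlapped through control replicate 3, and the log2 fold change was 0.15 (SE 0.0960), or 0.04 (SE 0.110) with effective lengths as offsets. FGFR3 (ENSG00000068078, chromosome 4) was at 6.42, 5.80 and 4.25 CPM in the control libraries and at 4.21, 4.34 and 4.86 CPM with the FOXL2 siRNAs. Its log2 fold change was -0.29 (SE 0.169), the only negative one of the 8 fitted, and the groups overlapped because control replicate 3 was as low as the FOXL2 siRNA libraries. FRS2 (ENSG00000166225, chromosome 12), which links the activated receptor to GRB2, was at 25.5, 27.2 and 26.5 CPM in the control libraries and at 27.3, 28.2 and 24.3 CPM with the FOXL2 siRNAs. The log2 fold change of FRS2 was 0.01 (SE 0.0814), and its sign turned in 6 of 13 alternative fits.

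**Figure D3:**
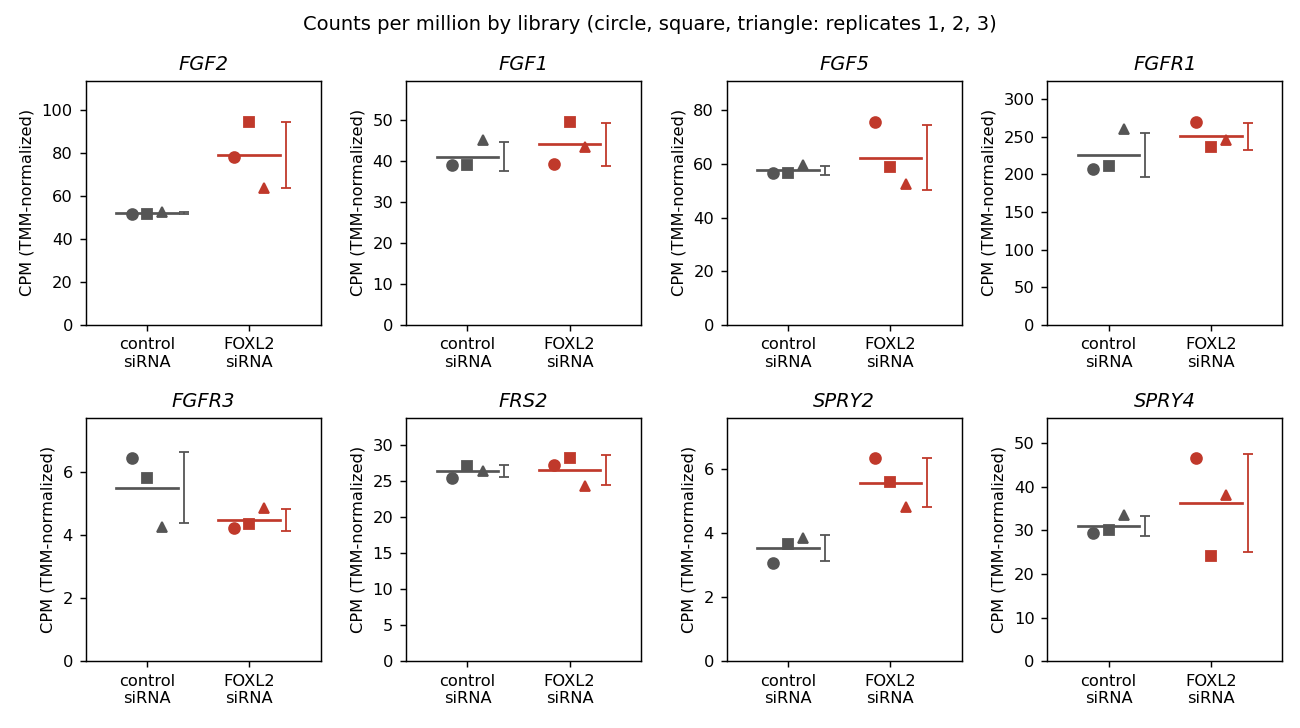
TMM-normalized CPM of the 8 genes with counts high enough for the test, in each library (circle, square and triangle are replicates 1, 2 and 3); horizontal lines are means and bars are the SD of 3 libraries, and each axis starts at 0. The groups are apart for FGF2 and SPRY2 and overlap for the other 6 genes.

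Of the 10 genes 8 had counts high enough for the test, and FGFR2 and FGFR4 did not. In 2 of the 8, FGF2 and SPRY2, each FOXL2 siRNA library exceeded each control library, and in 0 each was lower; over all 15663 genes tested the groups did not overlap in 20.5%, and in 9.97% the FOXL2 siRNA libraries were the higher. By edgeR 0 of the 8 passed an adjusted p of 0.05 (2 had an unadjusted p below 0.05), where it called 0.255% of all genes tested and 13.5% had an unadjusted p below 0.05. DESeq2 called 1, FGF2, where it called 3.06% of the genes it tested, and with effective lengths as offsets it again called FGF2, where it called 2.85%. Nothing is read from these counts, since the genes were chosen on this comparison. Of the 8 log2 fold changes 7 were positive in edgeR, with a median of 0.13 beside 0.01 over all genes tested. With effective lengths as offsets 5 were positive.

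**Figure D4:**
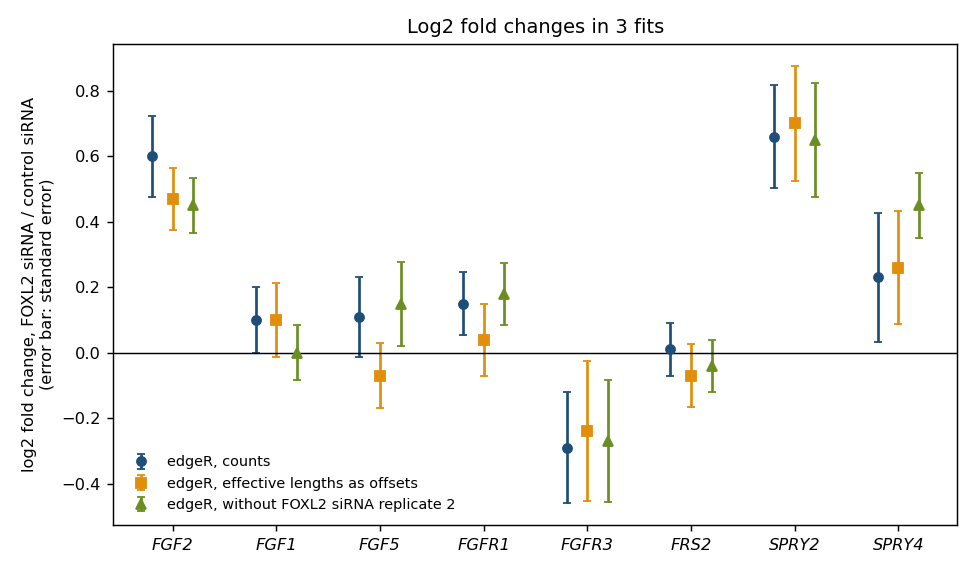
Log2 fold change (FOXL2 siRNA over control siRNA) of the 8 genes in edgeR on the counts (circles), with effective lengths as offsets (squares) and without FOXL2 siRNA replicate 2 (triangles); bars are the standard error. FGF2 and SPRY2 stay above 0.4 in the 3 fits, SPRY4 moves from 0.23 to 0.45 without replicate 2, and FGF5 and FRS2 change sign.

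Several of the genes share bases with neighbours, which could move reads between them. FGF2 overlaps NUDT6, a nudix hydrolase gene on the opposite strand also known as the FGF2 antisense gene, over 804 of the 6775 exonic bases of FGF2. NUDT6 had 216, 219 and 225 counts in the control libraries and 230, 229 and 262 with the FOXL2 siRNAs, between 8.40 and 9.46 CPM in all libraries, and its log2 fold change was 0.06 (SE 0.0995, edgeR adjusted p = 0.846). The libraries were stranded, but the strand setting of the counting is not given in the sources used here. With the counts of FGF2 and NUDT6 summed, a fit added after seeing the data, the log2 fold change was 0.53 (SE 0.114). FGFR1 shares 138 of its 13842 exonic bases with LETM2 on the opposite strand (208 to 217 counts in the control libraries, 232 to 312 with the FOXL2 siRNAs) and 156 with AC087623.1, which had at most 2.57 counts. FGF5 shares 136 of 5998 bases with CFAP299 on its own strand, which had 10.0 to 18.8 counts. SPRY4-AS1, opposite to FGF1 and SPRY4 with no shared exonic base, had 10, 12 and 14 counts in the control libraries and 30, 16 and 20 with the FOXL2 siRNAs. The other 6 genes annotated over one of the 10 (AC021205.1 and AC021205.3 over FGF2, AC087623.3 and RPS20P22 over FGFR1, RF02038 and RF02039 over SPRY4) share no exonic base with it and had at most 22.8 counts in a library.

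The study had selected RNAs that bind FOXL2 in vitro and found them rich in G doublets, so transcripts were searched for 8 GG doublets separated by gaps of 1 to 4 nucleotides. This pattern is looser than the paper's general consensus, which allows a gap of 4 only as the first and begins some gaps with A. A match to the pattern is therefore not a match to that consensus. The pattern searched occurred in the longest transcript of 19.3% of 15530 tested genes with a transcript in GENCODE v29. All 4 annotated FGF2 transcripts and 5 of 11 FGFR3 transcripts hold it, and no transcript of the other 8 genes does. Among genes whose longest transcript is 0.8 to 1.2 times as long the share was 25.4% for FGF2 and 23.8% for FGFR3. The matches are shown because these are the only ones in the 10 genes. They are written 5′ to 3′ as DNA, from the annotated transcripts, with the matched doublets in capitals, and stretches are cut at 30 bases. The first FGF2 match lies in transcript FGF2-201 at chr4:122826762-122826791 (plus strand), across the start of the annotated coding sequence, which takes in 16 of its 30 bases. The second FGF2 match, 31 bases from chr4:122827091-122827121, is coding in FGF2-201 and FGF2-203 and 5′ UTR in FGF2-202 and FGF2-204. The FGFR3 match, 33 bases from chr4:1807964-1807996 on the plus strand, lies in the 3′ UTR.
FGF2, first match: GGgGGcgcGGgaGGctGGtGGgtgtGGgGG
FGF2, second match, its first 30 bases: GGaGGccGGggccGGggccGGgGGacGGcG
FGFR3, its first 30 bases: GGgGGcacaGGaGGcaGGcatGGccctGGg

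A match is a description of letters and not a site of binding.

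FOXL2 is also a DNA-binding forkhead factor, and RefSeq promoter windows (GRCh38.p14, 250 bases before to 50 after each start) were searched on both strands for the forkhead words GTAAACA (or ATAAACA, with another first letter) and GTAAATA (or, likewise, ATAAATA), none of which contains another. At least 1 word was found in 13.6% of all 35116 windows. Of the 10 genes 9 had windows in the table, 20 in all, and 4 windows, of FGF5 and FGF1, held a word. The single FGF2 window and the 3 SPRY2 windows held none, which says only that these letters are not in these windows. The stretches with a word are shown on the strand of the gene with the word in capitals. That of FGF5, chr4:80268045-80268073, begins its word 212 bases before a start and lies outside the exons of FGF5. Those of FGF1 lie at chr5:142698036-142698064, with the word 17 bases after a start, and at chr5:142686250-142686278, with the word 177 bases before another start, both on the minus strand and in annotated exons of FGF1.
FGF5: taggactttttATAAACAaagttttaaat
FGF1, first: gagggggagaaATAAATAtacagtgcttg
FGF1, second: cccctctactgATAAACAaggaccggaga

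The pattern of FGF2 over the 6 libraries was most like that of APPBP2, UGCG and VPS37A, with Pearson's r of 0.997, 0.997 and 0.995 on log2 CPM among 13619 genes with a mean of at least 1 CPM. UGCG encodes the glucosylceramide synthase and VPS37A a subunit of the ESCRT-I sorting complex. UGCG was at 50.8, 49.5 and 50.8 CPM in the control libraries and at 69.7, 84.4 and 61.6 CPM with the FOXL2 siRNAs, so that it too was highest in replicate 2. APPBP2 was at 45.9, 45.9 and 45.1 CPM in the control libraries and at 54.9, 59.7 and 50.1 CPM with the FOXL2 siRNAs, a smaller difference with the FOXL2 siRNA libraries in the same order. The 6 points fall into 2 groups and share their libraries, and 503 genes had an r above 0.9. SPRY2 had an r of 0.88 with FGF2 and NUDT6 one of 0.51.

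The rest of the pathway was read from 7 lists written by role, with 100 genes, of which 72 passed the filter. The lists were written with earlier results of these data known. Their shares and medians are set beside those of all genes as a description only. edgeR called 0 of the 72, the smallest adjusted p being 0.174 for MYC, and DESeq2 called 0. At an unadjusted p below 0.05 there were 14, of which 9 were higher and 5 lower with the FOXL2 siRNAs, 19.4% beside 13.5% of all genes tested. The groups did not overlap in 17, of which 10 were higher and 7 lower, 23.6% beside 20.5% of all genes tested. DESeq2 with effective lengths as offsets called 4, among them SDC2 and GRB2 (lower) and MYC (higher), which were named after their values were seen.

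Few other ligands were expressed. Of 19 other FGF genes 3 passed the filter, FGF11, FGF12 and FGF14, which encode intracellular FGF homologous factors that are not secreted, and the other 16 did not exceed 0.672 CPM. The median log2 fold change of the 3 was 0.56. FGF12 had the largest difference of these, with a log2 fold change of 0.58 (SE 0.376, edgeR adjusted p = 0.530) at 0.245 to 0.597 CPM in the control libraries and 0.486 to 0.703 CPM with the FOXL2 siRNAs, which overlap. FGF11, added after its values were seen, was at 0.757, 1.02 and 1.04 CPM in the control libraries and at 1.46, 1.45 and 1.28 CPM with the FOXL2 siRNAs. Its groups did not overlap, and it was the 1 gene of the 3 with an unadjusted p below 0.05, with a log2 fold change of 0.56 (SE 0.223, edgeR adjusted p = 0.328). Of 9 co-receptors and ligand carriers 5 were tested and 0 had an unadjusted p below 0.05. FGFRL1, a receptor homologue without the kinase domain, had a log2 fold change of -0.11 (SE 0.0809, edgeR adjusted p = 0.602), at 41.8 to 52.3 CPM. Of 24 genes of heparan sulfate proteoglycans and their synthesis, which present FGFs to the receptor, 17 were tested and 1, SDC2, had an unadjusted p below 0.05. Of their log2 fold changes 5 were positive and 12 negative, with a median of -0.07. The groups did not overlap in 1, GPC1, named after its values were seen, beside 20.5% of all genes tested. GPC1 was lower, at 739, 733 and 802 CPM in the control libraries and 699, 688 and 722 CPM with the FOXL2 siRNAs. SDC2, a syndecan, was at 61.3, 60.6 and 56.5 CPM in the control libraries and at 46.4, 57.9 and 51.2 CPM with the FOXL2 siRNAs, which overlap. Its log2 fold change was -0.20 (SE 0.0878, edgeR adjusted p = 0.368), and on the TPM scale its groups did not overlap (104, 98.7 and 99.5 against 77.6, 75.2 and 89.0 TPM). GPC4, a glypican, differed most in size, by 0.34 (SE 0.251, edgeR adjusted p = 0.592), with overlapping groups.

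All 19 genes of the relay from receptor to ERK were tested. They had a median log2 fold change of -0.06, and 7 of the log2 fold changes were positive and 12 negative. At an unadjusted p below 0.05 there were 3 higher and 4 lower of the 19, beside 13.5% of all genes tested, and the groups did not overlap in 3 that were higher and 5 that were lower, beside 20.5% of all genes tested. GRB2, the adaptor that FRS2 recruits, was at 105, 103 and 107 CPM in the control libraries and at 86.0, 97.5 and 95.4 CPM with the FOXL2 siRNAs. Its groups did not overlap, and its log2 fold change was -0.18 (SE 0.0661, edgeR adjusted p = 0.310). In DESeq2 with effective lengths as offsets the adjusted p of GRB2 was 0.0477.

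The 9 other feedback inhibitors and 9 of 10 transcripts known to respond to ERK were tested. Their median log2 fold changes were 0.12 and 0.21, beside 0.01 over all genes tested, and in each list 6 of the 9 log2 fold changes were positive and 3 negative. In each list 3 of 9 genes had groups without overlap, all higher with the FOXL2 siRNAs, beside 9.97% of all genes tested. No gene of either list passed edgeR's test, and at an unadjusted p below 0.05 there were 1 and 4 genes, all higher, beside 13.5% of all genes tested in either direction. SPRY1, another Sprouty gene, was at 2.07, 1.88 and 2.46 CPM in the control libraries and at 3.26, 2.48 and 2.50 CPM in the FOXL2 siRNA libraries. The lowest FOXL2 siRNA value was thus only just above the highest control value, and the log2 fold change was 0.36 (SE 0.190, edgeR adjusted p = 0.442). IER3, an immediate early gene, had the largest difference among the ERK-responsive transcripts, 0.43 on the log2 scale (SE 0.315, edgeR adjusted p = 0.588). Its groups overlapped at 0.709 to 1.73 CPM, resting on 18.5 to 49.7 counts. EGR1, FOS and FOSL1, named after their values were seen, had lower means with the FOXL2 siRNAs and overlapping groups. The control libraries held 8.69 to 11.5, 1.31 to 2.01 and 330 to 405 CPM of them. The FOXL2 siRNA libraries held 7.89 to 9.59, 1.32 to 1.60 and 307 to 347 CPM. MYC was at 98.8, 104 and 109 CPM in the control libraries and at 125, 116 and 129 CPM in the FOXL2 siRNA libraries, a log2 fold change of 0.25 (SE 0.0669, edgeR adjusted p = 0.174). In the fit without FOXL2 siRNA replicate 2 the edgeR adjusted p of MYC was 0.0334. That fit called 579 genes over all genes tested, against 40 with every library. No gene of the pathway lists was called when any other single library was left out.

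Of 10 genes for the handling of FGF1 and FGF2 in the cell (export, import, nuclear traffic and the antisense gene NUDT6), 10 were tested and 0 had an unadjusted p below 0.05. The groups did not overlap in 1, KPNB1, named after its values were seen, beside 20.5% of all genes tested. KPNB1 was lower, at 656, 661 and 678 CPM in the control libraries and 609, 636 and 636 CPM with the FOXL2 siRNAs. The median log2 fold change of the 10 was -0.04. TEC, a kinase that phosphorylates FGF2 before its export, differed most, with a log2 fold change of -0.36 (SE 0.239, edgeR adjusted p = 0.546) and overlapping groups.

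**Figure D5:**
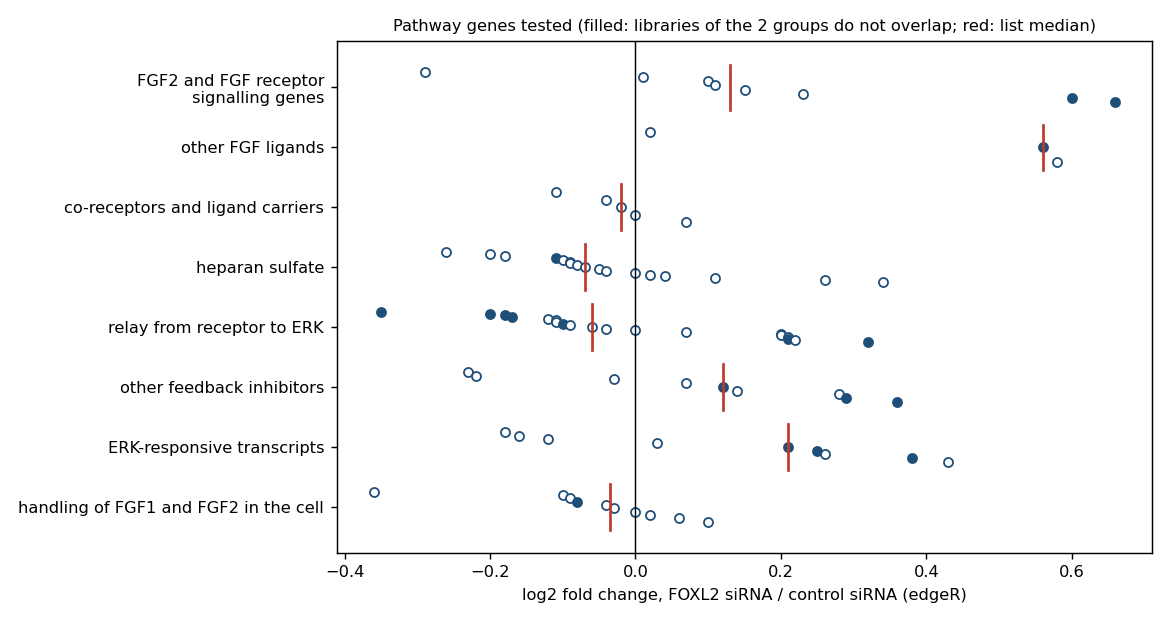
Log2 fold change (FOXL2 siRNA over control siRNA, edgeR) of each tested gene of the FGF2 and FGF receptor signalling genes and of the 7 other pathway lists; filled points are genes whose libraries do not overlap between the groups and red lines are list medians. The medians of the feedback inhibitors and ERK-responsive transcripts are 0.12 and 0.21, and those of the relay and heparan sulfate lists are -0.06 and -0.07; no point passed edgeR's test at an adjusted p below 0.05.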

How the data were processed

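The 6 RNA-seq libraries were grouped by siRNA as the labels give it. The authors made stranded mRNA libraries, sequenced single reads of 75 bases, aligned them with STAR 2.7.6a and estimated expression with RSEM 1.3.1 (versions from the submitters' processing notes). Those notes name a mouse genome build, while the deposited tables hold human Ensembl genes, so the authors' human build is not given in the sources used here. For 60671 genes the deposited tables give an expected count, estimated by RSEM and not normalized, the authors' TPM and FPKM, scaled to library and transcript length, and a length and an effective length. FPKM was not used. Symbols were matched for 60401 identifiers.

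Expected counts were rounded, genes were kept by filterByExpr (15663) and normalized by TMM, and the groups were compared with the quasi-likelihood test of edgeR 4.0.16 in R 4.3.3, with Benjamini-Hochberg adjustment over all genes tested and a threshold of 0.05. The study's methods state DESeq2, which was an alternative here (DESeq2 1.42.0, limma 3.58.1). The other alternatives were edgeR with the size factors of DESeq2, edgeR without filterByExpr, the replicate number as a block, effective lengths as offsets, limma on log2(TPM + 1) where the mean was 1 TPM or more, and each library left out. CPM values, other than the limit given for a count of 0, are TMM-normalized and errors are the SD of 3 libraries unless given as SE. Coordinates are those of GENCODE v29 (GRCh38), which held 89.5% of the transcripts named in the tables. Promoter sequences are from RefSeq.

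The members and lists were chosen with earlier results of these data known. The genes named are the 10 members, FOXL2, the genes annotated over a member, in each list the genes called or else the one with the largest absolute log2 fold change, and the 3 genes most correlated with FGF2; 1 gene that this rule names is not reported here. Python 3.11.15, pandas 2.3.3 and matplotlib 3.10.9 made the tables and plots.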

Additional observations from a re-analysis of the deposited data

How the results depend on the processing

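The log2 fold changes of FGF2 (0.44 to 0.73), SPRY2 (0.53 to 0.75), SPRY4 (0.02 to 0.45), FGFR1 (0.04 to 0.26) and FGF1 (0.00 to 0.18) did not turn negative, and that of FGFR3 (-0.45 to -0.16) did not turn positive, in any alternative run. The values 0.44 for FGF2 and 0.53 for SPRY2 are from limma on log2(TPM + 1), where the added 1 shrinks differences at low TPM. The log2 ratio of the mean TPM of SPRY2 was 0.70. The sign turned for FGF5 with effective lengths as offsets in edgeR and DESeq2 (-0.07 and -0.08), in limma on log2(TPM + 1) (-0.07) and without FOXL2 siRNA replicate 1 (-0.05; -0.05 to 0.22 over the 6 fits without 1 library). It turned for FRS2 in the same fits (-0.07, -0.07 and -0.06) and without control siRNA replicate 1 (-0.01), FOXL2 siRNA replicate 1 (-0.01) or FOXL2 siRNA replicate 2 (-0.04; -0.04 to 0.07 over those 6 fits). The cause was not tested. FOXL2 was lower and past the threshold in all 13 alternatives. DESeq2 called FGF2, where it called 3.06% of the genes it tested. Without FOXL2 siRNA replicate 2 edgeR called FGF2 and SPRY4, where it called 579 genes over all genes tested, against 40 with every library. Nothing is read from these calls, since the genes were chosen on this comparison.

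The number of calls over all genes depended strongly on the processing. Against 40 in edgeR there were 353 in DESeq2, 344 in DESeq2 with effective lengths as offsets, 70 with no filter on low counts and 13 in limma on log2(TPM + 1). Leaving out 1 library gave 2 to 579 calls. When a control library was left out there were 2 (replicate 1), 3 (replicate 2) and 2 (replicate 3), and when a FOXL2 siRNA library was left out there were 105 (replicate 1), 579 (replicate 2) and 9 (replicate 3). Over the other pathway lists, edgeR called 0 genes, 1 with effective lengths as offsets and 0 to 2 when 1 library was left out (2 without FOXL2 siRNA replicate 2, MYC among them), and DESeq2 with effective lengths as offsets called 4. The number of positive log2 fold changes among the 8 genes lay between 5 and 7. The FGFR1 share of the receptor sum, averaged over the libraries used from both groups, lay between 97.7% and 98.0%. In single libraries it ran from 96.9% to 98.6% of the summed TPM.

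The groups share replicate numbers, which for the FOXL2 siRNA libraries are those of the siRNA pools. Deviations from the group means of same-numbered libraries correlated by -0.03, 0.047 and 0.048, so libraries were not paired by number in the main fit. With the replicate block edgeR called 11 genes, 0 of them in the other pathway lists.

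The main limits are the 3 libraries per group, the different siRNA pools, the overlap of FGF2 with NUDT6 and counts that cannot resolve FGFR2 and FGFR4 at this depth.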
